A study of Mus musculus with 72 samples.

Results

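The oocyte-specific genes considered here are 37 genes whose transcripts are used by the mouse oocyte for its coat, its transcription factors, its stored messenger RNA and the proteins it lays down for the embryo. They were chosen by gene symbol, and each matched 1 of the 56691 gene identifiers in the count table. RNA was measured in early secondary ovarian follicles, each an oocyte wrapped in granulosa cells, after 24 h in culture. Follicles received 10 ng/ml of hypoglycosylated follicle-stimulating hormone (FSH21), 10 ng/ml of the fully glycosylated hormone (FSH24), 1 ng/ml of FSH21, 1 ng/ml of FSH24, or no FSH. All groups, the untreated ones included, shared the same α-MEM medium with serum albumin, fetuin and an insulin-transferrin-selenium supplement, so no group was free of insulin. No genotype, strain or animal age is given in the labels. There were 18 libraries, each run on 4 lanes, in 6 groups of 3, and every library carries a number in its title. The 10 ng/ml libraries and 3 untreated libraries carry 2, 3 and 4, and the 1 ng/ml libraries and the other 3 untreated libraries carry 1, 5 and 6. Each FSH group was compared with the untreated libraries of its own numbers. Whether replicates came from separate animals or cultures is not in the labels. The p-values below therefore stand on library-to-library spread, some of which could be technical. In FSH libraries, dose and number set cannot be told apart.

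Oocytes grow inside the follicle for a long time while they are arrested in meiosis, and during that growth they transcribe and store what the egg and early embryo will need. FSH acts on granulosa cells, which carry the FSH receptor, and reaches the oocyte through them, by secreted factors such as KIT ligand and through gap junctions. Most of the 37 genes are little used by granulosa cells; Dnmt1 and Uchl1 are exceptions that many other cell types also use. Levels in a whole-follicle library are relative to its total. Fewer oocytes, less RNA per oocyte and more RNA from the other cells therefore cannot be told apart.

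Promoter windows are shown for 3 members: Zp3, a zona gene controlled by the oocyte factor FIGLA through an E-box, and Rfpl4 and Khdc3, which were called with FSH24 at 10 ng/ml in the test without a block. The windows are RefSeq sequence on GRCm38.p6, from 250 bases before to 50 bases after the annotated start, written 5′ to 3′ on the gene's own strand, with every E-box (CANNTG, searched on both strands) in capitals. The Zp3 window lies at chr5:135979855-135980154 on the plus strand, the Rfpl4 window at chr7:5116862-5117161 on the minus strand and the Khdc3 window at chr9:73102148-73102447 on the plus strand.
Zp3: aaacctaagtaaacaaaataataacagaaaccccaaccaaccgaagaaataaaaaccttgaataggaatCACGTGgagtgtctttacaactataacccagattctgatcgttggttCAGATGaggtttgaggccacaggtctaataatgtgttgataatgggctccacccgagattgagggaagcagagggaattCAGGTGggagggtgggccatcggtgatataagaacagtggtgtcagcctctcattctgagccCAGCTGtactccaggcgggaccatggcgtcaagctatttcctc
Rfpl4: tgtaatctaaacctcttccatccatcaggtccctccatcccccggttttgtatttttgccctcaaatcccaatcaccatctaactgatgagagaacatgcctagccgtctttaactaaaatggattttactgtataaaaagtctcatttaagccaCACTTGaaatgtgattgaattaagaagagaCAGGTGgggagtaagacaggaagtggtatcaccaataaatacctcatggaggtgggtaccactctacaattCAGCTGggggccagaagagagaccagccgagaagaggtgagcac
Khdc3: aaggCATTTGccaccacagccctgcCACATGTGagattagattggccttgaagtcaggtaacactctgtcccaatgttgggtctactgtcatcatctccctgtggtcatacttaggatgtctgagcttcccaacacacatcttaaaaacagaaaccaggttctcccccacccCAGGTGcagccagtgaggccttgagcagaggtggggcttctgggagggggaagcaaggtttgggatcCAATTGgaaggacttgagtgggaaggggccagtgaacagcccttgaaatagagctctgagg
The Zp3 window held 4 E-boxes, the Rfpl4 window 3 and the Khdc3 window 5, of which CACATG and CATGTG overlap. All 3 windows carried the form CAGGTG. It began 55 bases before the start in Zp3, 65 bases before it in Rfpl4 and 78 bases before it in Khdc3. The Zp3 window also carried CACGTG, which began 181 bases before the start and was absent from the Rfpl4 and Khdc3 windows. Which of the Zp3 E-boxes FIGLA uses was not tested. Windows were given for 29 of the 37 members, and 26 of these 29 genes held an E-box, a motif found in 72.3% of all 32851 mouse windows. CAGGTG, counted with its reverse complement, was in 16 of the 29 genes, against 20.2% of all windows. CACGTG was in 6 of the 29 genes, against 7.15% of all windows, and TAATTG, the letters bound by NOBOX, was in 3 of them (Ooep, Padi6 and Zar1l), against 8% of all windows. Some genes have more than 1 window, so shares of genes and of windows are not on the same footing, and these matches describe letters only.

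In untreated follicles the oocyte genes were among the most abundant transcripts. Divided by the exon length of each gene, 9 of the 37 members were in the top 1% of 18407 ranked genes, 24 in the top 5% and 26 in the top 10%, and 2 were below the top 50%. Levels here are CPM (counts scaled to a common library total) per kilobase of exon, averaged over the 6 untreated libraries. Padi6, a protein of the cytoplasmic lattices, led at 468 ± 47.9 (SD, n = 6), followed by Zp3 at 455 ± 54.5 and Zp2 at 327 ± 36, both zona pellucida glycoproteins. The ranges of Padi6 and Zp3 overlapped. Uchl1 (a ubiquitin hydrolase), Nlrp14 (an NLR-family protein), Dnmt1 (the maintenance DNA methyltransferase) and Npm2 (a histone chaperone) followed at 303, 297, 253 and 251. Zp1, the third zona protein, Tle6, a subunit of the subcortical maternal complex, Bcl2l10, a BCL2-family protein, Dppa3, which protects maternal methylation, and Oog1 lay between 190 and 124. The middle of the order held the complex members Nlrp5, Khdc3, Nlrp4f and Ooep, the cortical granule protease Astl, the secreted protein Oosp1, the homeobox factor Nobox, the RNA-binding proteins Zar1, Ybx2 and Cpeb1, and Rfpl4, all between 111 and 57.8. The meiotic kinase gene Mos, the mRNA-decay adaptor Btg4, Nlrp2, Zar1l, Oosp3 and the germ-cell RNA helicase Ddx4 lay between 54.5 and 22.1. Near the bottom were Pou5f1, Lhx8, the RNA-binding protein Dazl, Oosp2, the methylation cofactor Dnmt3l and Figla, from 18.5 down to 6.3. Sohlh1 at 1.74 and Sohlh2 at 0.44, basic helix-loop-helix factors that act earlier, in small follicles, were last. Of the 36 pairs of neighbours in this order, 6 had ranges that did not overlap. In the other pairs the ranges overlapped. The order of neighbours within each single library was not tested.

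**Figure D1:**
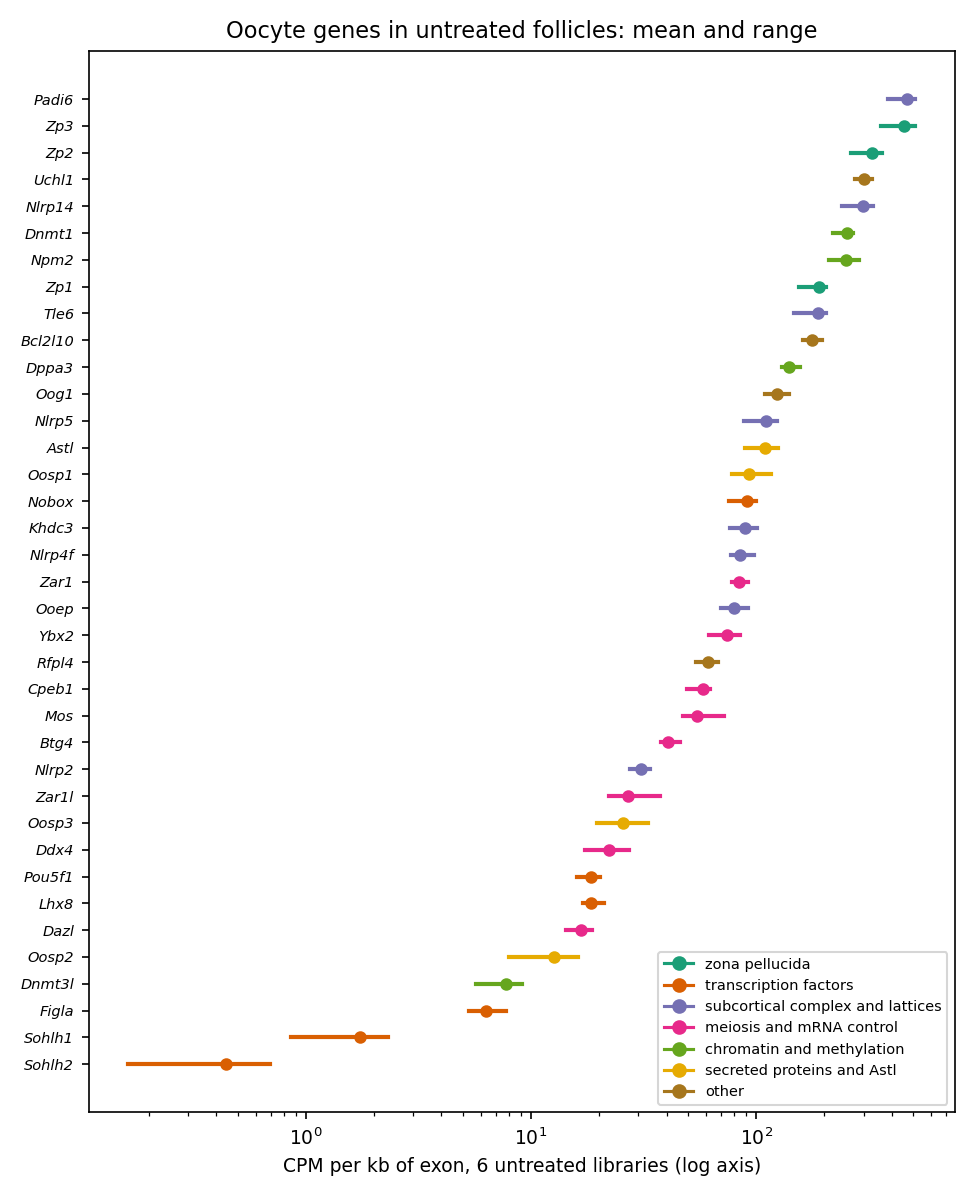
Level of each oocyte gene in untreated follicles, in CPM per kilobase of exon on a log axis; points are means and bars the lowest to highest of 6 untreated libraries, coloured by role. Padi6 and Zp3 stood at 468 and 455, and Sohlh2 at 0.44.

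At 10 ng/ml the oocyte genes stood slightly below untreated follicles with both hormones. Summed over the 37 members, the level was 10689 ± 580 CPM with FSH21 (range 10220 to 11338) and 10447 ± 381 CPM with FSH24 (10034 to 10784), against 11724 ± 229 CPM in untreated libraries 2, 3 and 4 (11519 to 11971; SD, n = 3 each). All 6 FSH libraries lay below the 3 untreated ones. The sums weigh the most abundant members most, among them Dnmt1 and Uchl1, which many other cell types also use. Dnmt1 averaged 1757 CPM with FSH21, 1722 CPM with FSH24 and 1881 CPM in these untreated libraries. Uchl1 averaged 486, 460 and 519 CPM in the same groups. Divided by the untreated library of the same number, the sum was 0.947, 0.9 and 0.887 with FSH21 and 0.901, 0.901 and 0.871 with FSH24 in numbers 2, 3 and 4. The median log2 fold change of the members was -0.14 with FSH21, with 35 of 37 below 0, and -0.18 with FSH24, with 36 of 37 below 0, while the median over all 18727 genes tested was 0.000 in both. The 2 hormones share their untreated libraries, so these are not independent counts. All 37 members passed the count filter.

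The untreated libraries of the other numbers were lower, and this bears on the 10 ng/ml values. Summed levels were 10477 ± 957 CPM in untreated libraries 1, 5 and 6 (9426 to 11298), and the means of both 10 ng/ml groups lie within that range. Untreated libraries 2, 3 and 4 minus untreated libraries 1, 5 and 6 gave a median log2 difference of 0.19 over the members, with 36 of 37 above 0, against a median of -0.004 over all genes. All 3 of the first set were above all 3 of the second for 21 members, against 5.3% of all genes, and no member was called at an adjusted p under 0.05 by edgeR or by DESeq2 (0% of all genes were called by edgeR). Unadjusted p-values under 0.05 were reached by 18 members, all higher in libraries 2, 3 and 4, a direction and level reached by 2.79% of all genes. With all 6 untreated libraries as the comparison, the members' median was -0.05 for FSH21 and -0.08 for FSH24 at 10 ng/ml. The median difference between the untreated sets was thus of the size of the FSH differences at 10 ng/ml.

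**Figure D2:**
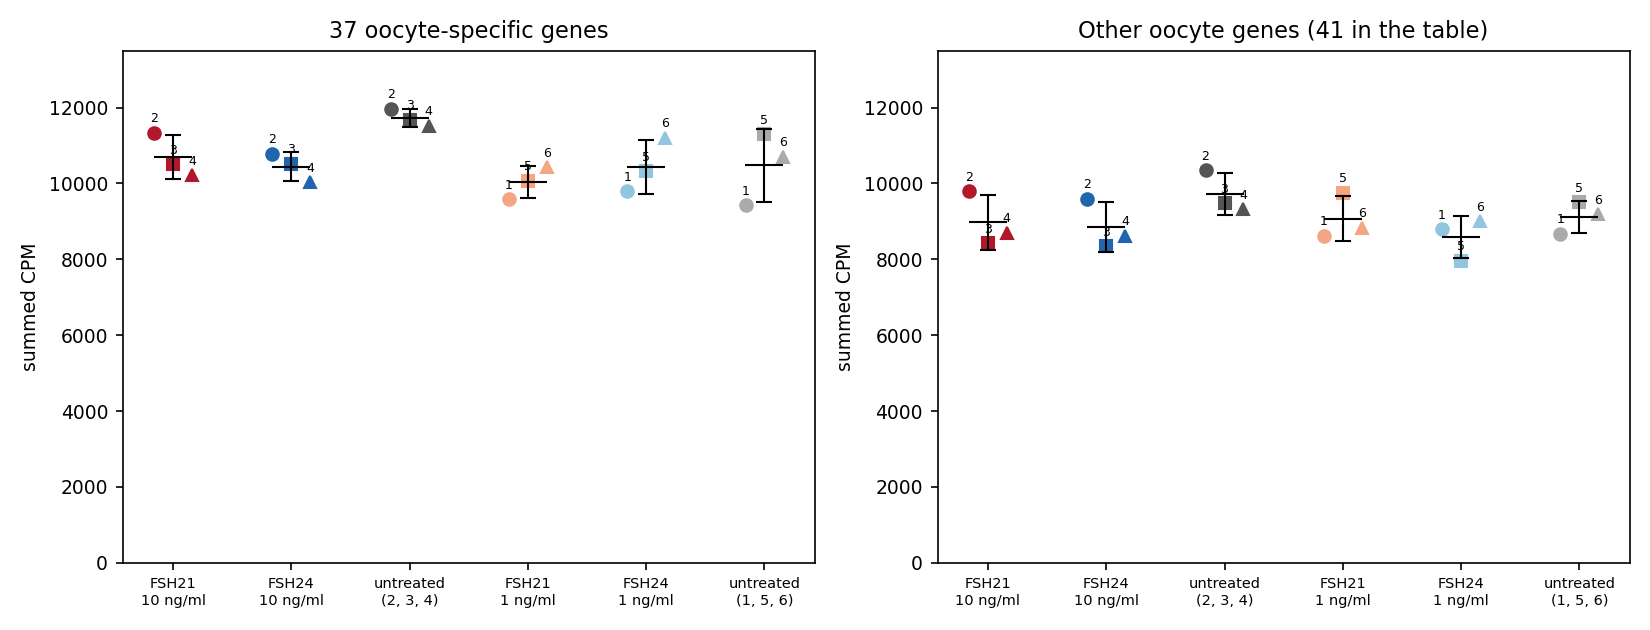
Summed CPM of the 37 oocyte genes (left) and of 41 other oocyte genes (right) in every library, labelled by library number, with the mean and SD of each group of 3. Both sums were highest on average in untreated libraries 2, 3 and 4, at 11724 and 9715 CPM.

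Other oocyte genes had similar medians. A list of further oocyte genes, among them the growth factor genes Gdf9 and Bmp15, had 39 of its members tested, and their median log2 fold change was -0.12 with FSH21 and -0.15 with FSH24 at 10 ng/ml. None was called by edgeR without a block in either comparison, where 4.21% and 3.3% of all genes fell. At an unadjusted p under 0.05, 1 of the 39 was lower with FSH21 and 7 with FSH24, against 9.65% and 8.78% of all genes. When libraries were scaled by this list in place of all genes, the 37 members' medians came to -0.03 with FSH21 and -0.05 with FSH24, and the median over all genes moved to 0.117 and 0.135. Granulosa markers summed to 8784 ± 372 CPM with FSH21 and 8297 ± 338 CPM with FSH24, against 8204 ± 774 CPM in untreated libraries 2, 3 and 4, and all 14 were detected. Of these 14, 5 rose and 2 fell with FSH21, and 4 rose and 2 fell with FSH24, at an adjusted p under 0.05 in edgeR without a block. Of all 18727 genes tested, 1117 rose and 4.21% fell with FSH21, and 959 rose and 3.3% fell with FSH24, by the same rule. Kitl, which encodes KIT ligand, rose by 1.64 (SE 0.08) and 1.53 (SE 0.08) on the log2 scale (edgeR adjusted p = 9.21e-10 and 3.01e-09). Theca and steroidogenic markers summed to 1926 CPM with FSH21 and 1893 CPM with FSH24, against 1468 CPM in those untreated libraries, and 3 of 9 rose with either hormone, among them Cyp17a1 and Star. Surface epithelium markers summed to 81.5 CPM with FSH21 and 77.5 CPM with FSH24, against 44.9 CPM without FSH, of which Krt8 was the 1 called, and 5 of the 8 averaged under 1 CPM, among them Krt7, Krt19 and Msln. Stroma markers summed to 3676 CPM with FSH21 and 4010 CPM with FSH24, against 4419 CPM without FSH, and none was called. Endothelial markers summed to between 71.6 and 107 CPM in all libraries, immune markers to between 1.38 and 5.95 CPM with Ptprc, Csf1r and Adgre1 each under 1 CPM on average, and red blood cell genes to under 1 CPM with Hbb-bt at 0 throughout. The part of these other cells in the oocyte values was not tested.

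With FSH24 at 10 ng/ml, Rfpl4 and Khdc3 fell and no member rose at an adjusted p under 0.05 (edgeR's quasi-likelihood test without a block, adjusted over all genes). By the same rule 3.3% of all genes fell and 5.12% rose. With the library number as a block, 12 members fell, against 5.58% of all genes. Without a block, 14 members, Rfpl4 and Khdc3 included, had an unadjusted p under 0.05, all below untreated, against 8.78% of all genes in that direction. Rfpl4, whose RING-finger protein is found in oocytes and linked to protein turnover, had 86.2, 92.3 and 74.9 CPM with FSH24 in numbers 2, 3 and 4, against 114, 106 and 104 CPM in the untreated libraries of those numbers. The 2 groups did not overlap, and number 4 was the lowest FSH24 library. The fold change was -0.36 on the log2 scale (SE 0.09, 95% interval -0.55 to -0.16, adjusted p = 0.0206). Khdc3, which encodes the FILIA subunit of the subcortical maternal complex, had 173, 163 and 156 CPM with FSH24, against 207, 202 and 186 CPM without FSH. Its groups did not overlap either, and in both groups number 2 was highest and number 4 lowest. Khdc3 fell by 0.28 on the log2 scale (SE 0.08, adjusted p = 0.0372). Neither call held in every subset of libraries. Without untreated library 2 the adjusted p was 0.0737 for Rfpl4 and 0.0974 for Khdc3, and without FSH24 library 4 it was 0.108 and 0.134. Khdc3 also missed the threshold without FSH24 library 3 (0.0865), without untreated library 3 (0.078) and with only the 9 libraries of its dose set (0.0506), and no member kept its call when libraries were scaled by other oocyte genes (0.226 for Rfpl4 and 0.478 for Khdc3). With all 6 untreated libraries Rfpl4 kept an adjusted p of 0.0159 and Khdc3 had 0.298. DESeq2 called 7 members lower with FSH24, namely Rfpl4, Khdc3, Zp3, Uchl1, Btg4, Npm2 and Zar1, against 4.37% of all genes.

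With FSH21 at 10 ng/ml no member was called by edgeR without a block, where 10.2% of all genes were called in either direction. With the library number as a block, 8 members fell, against 6.62% of all genes. DESeq2 called Rfpl4 alone, which fell, as did 5.4% of all genes in DESeq2. Without a block, 7 members had an unadjusted p under 0.05 in edgeR, all below untreated, against 9.65% of all genes in that direction. Rfpl4 had 85.4, 92 and 91.1 CPM with FSH21, against 114, 106 and 104 CPM in untreated libraries 2, 3 and 4, a log2 fold change of -0.27 (SE 0.09, adjusted p = 0.0731). The FSH21 and untreated libraries did not overlap. Khdc3 had 182, 181 and 154 CPM with FSH21, against 207, 202 and 186 CPM without FSH, a log2 fold change of -0.20 (SE 0.08, adjusted p = 0.131). Its FSH21 libraries 2 and 3 lay just below the lowest untreated library, and library 4 stood well below.

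In this comparison the library numbers were taken to pair the samples. Deviations of same-numbered libraries from their group means correlated at over 0.1 in all 3 numbers. In every other comparison these correlations were also positive, but each comparison had a number under 0.1. That cut was chosen and not tested. Over all comparisons the same-numbered correlations ran from 0.05 to 0.235, and the highest with another number was 0.049. For FSH24 at 10 ng/ml the same-numbered correlations were 0.223, 0.089 and 0.077 in numbers 2, 3 and 4. Both hormones share these untreated libraries, so FSH24 at 10 ng/ml is given with and without the block. With the number as a block, 12 members fell with FSH24 at 10 ng/ml by edgeR's test, against 5.58% of all genes. With FSH21 at 10 ng/ml 8 members fell, against 6.62% of all genes that fell in the same fit. They came from several roles: Zp3 of the zona (-0.22, SE 0.07, adjusted p = 0.0374), the complex genes Ooep (-0.17, SE 0.06, 0.0479) and Khdc3 (-0.20, SE 0.06, 0.021), Mos (-0.19, SE 0.05, 0.0245), Zar1 (-0.19, SE 0.06, 0.0305), Oosp1 (-0.17, SE 0.05, 0.0392), Oosp3 (-0.32, SE 0.09, 0.0205) and Rfpl4 (-0.27, SE 0.08, 0.04). Read library by library, 32 of 37 members were below the untreated library of the same number in all 3 numbers with FSH21 at 10 ng/ml, as were 23.7% of all genes tested. The other 5 were Sohlh1, Sohlh2, Tle6, Dazl and Ddx4. Of these, 2 (Sohlh1 and Tle6) were above the untreated library in all 3 numbers, as were 25.6% of all genes. With FSH24 at 10 ng/ml, 29 members were below in all 3 numbers, against 21.6% of all genes, and 0 were above in all 3, against 23.3%. All 3 FSH libraries were below all 3 untreated libraries for 13 members with FSH21, against 12% of all genes, and for 17 members with FSH24, against 10.7%.

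**Figure D3:**
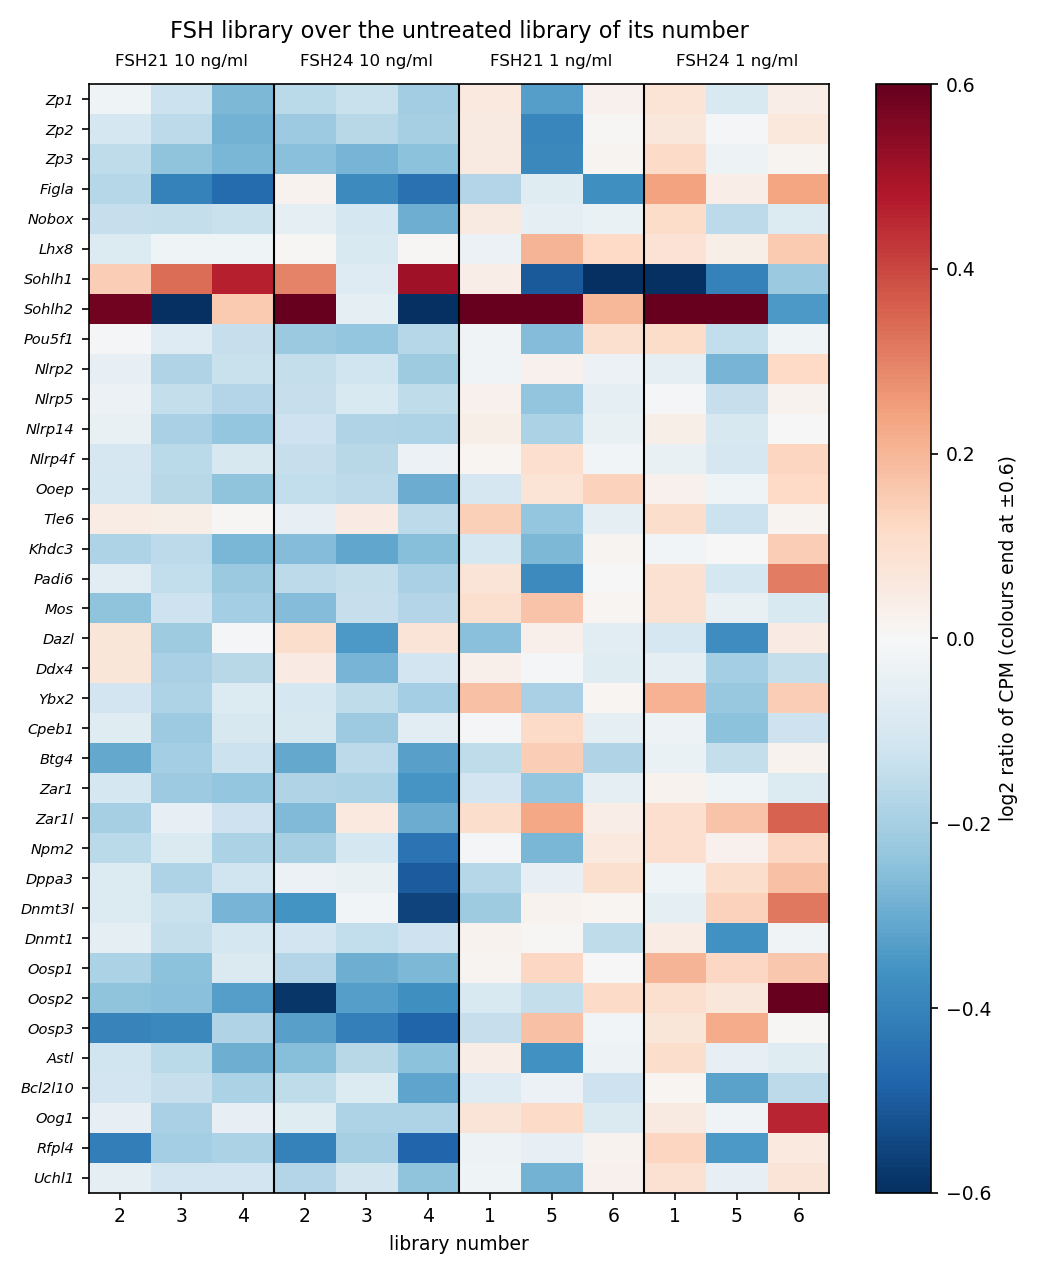
Log2 ratio of each FSH library over the untreated library of the same number for the 37 oocyte genes, ordered by role; blue is below untreated, red above, and colours end at ±0.6. The 6 columns at 10 ng/ml are blue for most genes, and the 6 columns at 1 ng/ml are mixed.

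Among the zona genes, Zp3, a structural glycoprotein of the egg coat, had 584, 568 and 518 CPM with FSH21 and 546, 553 and 528 CPM with FSH24 at 10 ng/ml, against 650, 671 and 627 CPM in untreated libraries 2, 3 and 4. Every FSH library was below every untreated one. The log2 fold changes were -0.22 with FSH21 (SE 0.09, adjusted p = 0.152) and -0.26 with FSH24 (SE 0.09, adjusted p = 0.0955). Zp2 had fold changes of -0.18 and -0.19 and Zp1 of -0.14 and -0.17, with SEs of 0.08 to 0.09 and no adjusted p under 0.05.

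None of the transcription factors was called, and the scarce Sohlh1 and Sohlh2 spread widely between libraries. Figla, the basic helix-loop-helix activator of the zona genes, had 5.36, 4.87 and 3.78 CPM with FSH21 and 6.13, 4.95 and 3.81 CPM with FSH24, against 6.04, 6.46 and 5.2 CPM in untreated libraries 2, 3 and 4. Library 2 of both hormones lay among the untreated libraries, and the fold changes were -0.34 with FSH21 and -0.25 with FSH24 (SE 0.19 each, adjusted p = 0.325 and 0.525). Nobox, a homeobox factor needed for oocyte growth, had 182, 170 and 174 CPM with FSH21 and 192, 175 and 156 CPM with FSH24, against 200, 188 and 191 CPM without FSH. The FSH21 libraries of Nobox were all below the untreated ones, and FSH24 library 2 was not; fold changes were -0.14 and -0.15 (SE 0.08 each). Sohlh1 had 2.18, 3.76 and 2.06 CPM with FSH21 and 2.42, 2.82 and 2.12 CPM with FSH24, against 1.97, 2.98 and 1.49 CPM without FSH. Its groups overlapped, and fold changes of 0.32 and 0.19 had SEs of 0.43. Sohlh2 had 1.12, 0.964 and 1.82 CPM with FSH21 and 1.19, 1.54 and 0.799 CPM with FSH24, against 0.749, 1.6 and 1.63 CPM without FSH, and its fold changes of -0.03 and -0.18 had SEs of 0.45. In FSH24 library 4 the Sohlh2 value rested on 17 counts, and with these SEs a difference of the size seen in the other members was not detectable for either Sohlh gene at this depth. Lhx8 changed by -0.05 and -0.03 and Pou5f1, which encodes OCT4, by -0.08 and -0.21 on the log2 scale (SE 0.08 each).

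In the subcortical maternal complex and the cytoplasmic lattices, Padi6 had 1212, 1164 and 1058 CPM with FSH21 and 1138, 1171 and 1076 CPM with FSH24, against 1267, 1291 and 1233 CPM in untreated libraries 2, 3 and 4. The groups did not overlap, and with SEs of 0.10 the fold changes of -0.14 and -0.16 were not called. Ooep had fold changes of -0.17 and -0.20, Nlrp14 of -0.16 with both hormones, Nlrp2 of -0.12 and -0.16, Nlrp5 of -0.12 and -0.13 and Nlrp4f of -0.12 and -0.11, with SEs of 0.08 to 0.09. Tle6, a partner of Ooep and Khdc3 in the complex, differed in value from them, with 0.03 and -0.05 (SE 0.10); whether it differed beyond error from its partners was not tested.

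Among the genes of meiosis and mRNA control, Zar1, an RNA-binding protein of stored maternal messages, had 297, 246 and 257 CPM with FSH21 and 282, 251 and 236 CPM with FSH24, against 320, 286 and 302 CPM in untreated libraries 2, 3 and 4. FSH21 library 2 lay among the untreated libraries, and all FSH24 libraries lay below them. The fold changes were -0.18 with FSH21 (SE 0.08, adjusted p = 0.159) and -0.24 with FSH24 (SE 0.08, adjusted p = 0.0659). Zar1 was called with FSH21 when FSH21 library 2 was left out (adjusted p = 0.0426) and with FSH24 when FSH24 library 2 was left out (0.0283). Leaving out any other single library of the comparison gave 0.117 to 0.431 with FSH21 and 0.0526 to 0.253 with FSH24. Btg4, which drives decay of maternal messages, had fold changes of -0.22 and -0.27 (SE 0.09), and Mos of -0.19 and -0.20 (SE 0.13). Ybx2, Cpeb1, Zar1l, Ddx4 and Dazl had fold changes between -0.05 and -0.14 with FSH21 and between -0.05 and -0.18 with FSH24.

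Of the chromatin genes, Dnmt1 had 1854, 1681 and 1735 CPM with FSH21 and 1776, 1674 and 1715 CPM with FSH24, against 1922, 1855 and 1867 CPM in untreated libraries 2, 3 and 4. All FSH libraries were below the untreated ones by a narrow margin, and the fold changes were -0.10 and -0.13 (SE 0.09 each). Npm2 had -0.15 with FSH21 and -0.25 with FSH24 (SE 0.08 each, adjusted p = 0.3 and 0.0566), Dppa3 -0.13 and -0.18 and Dnmt3l -0.17 and -0.33 on the log2 scale.

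The secreted oocyte proteins Oosp1, Oosp2 and Oosp3 are encoded side by side on chromosome 19. Oosp3 had 20.5, 16.7 and 18.7 CPM with FSH21 and 21.6, 16.4 and 15.2 CPM with FSH24, against 27.1, 21.8 and 21.2 CPM in untreated libraries 2, 3 and 4. Number 2 was the highest library in every group, the FSH21 libraries were all below the untreated ones, and FSH24 library 2 was not. Fold changes of Oosp3 were -0.33 with FSH21 (SE 0.16, adjusted p = 0.233) and -0.40 with FSH24 (SE 0.16, adjusted p = 0.144). Oosp2 had 9.21, 8.9 and 6.94 CPM with FSH21 and 7.27, 8.42 and 6.77 CPM with FSH24, against 10.9, 10.6 and 8.73 CPM without FSH. Only the FSH24 libraries were all below the untreated ones, and the fold changes were -0.27 and -0.43 (SE 0.24 each). Oosp1 had -0.17 and -0.24 (SE 0.13 each). Astl, the protease that hardens the zona after fertilisation, had 294, 259 and 240 CPM with FSH21 and 267, 258 and 248 CPM with FSH24, against 319, 290 and 294 CPM without FSH. The FSH24 libraries of Astl were all below the untreated ones, and the fold changes were -0.19 and -0.22 (SE 0.09 each, adjusted p = 0.212 and 0.128). Uchl1 had 513, 476 and 468 CPM with FSH21 and 472, 478 and 429 CPM with FSH24, against 533, 516 and 507 CPM without FSH. FSH21 library 2 overlapped with the untreated libraries, the FSH24 libraries did not, and the fold changes were -0.10 and -0.17 (SE 0.06 each, adjusted p = 0.434 and 0.111). Bcl2l10 had fold changes of -0.14 and -0.18 and Oog1 of -0.10 and -0.14 (SE 0.10 each).

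**Figure D4:**
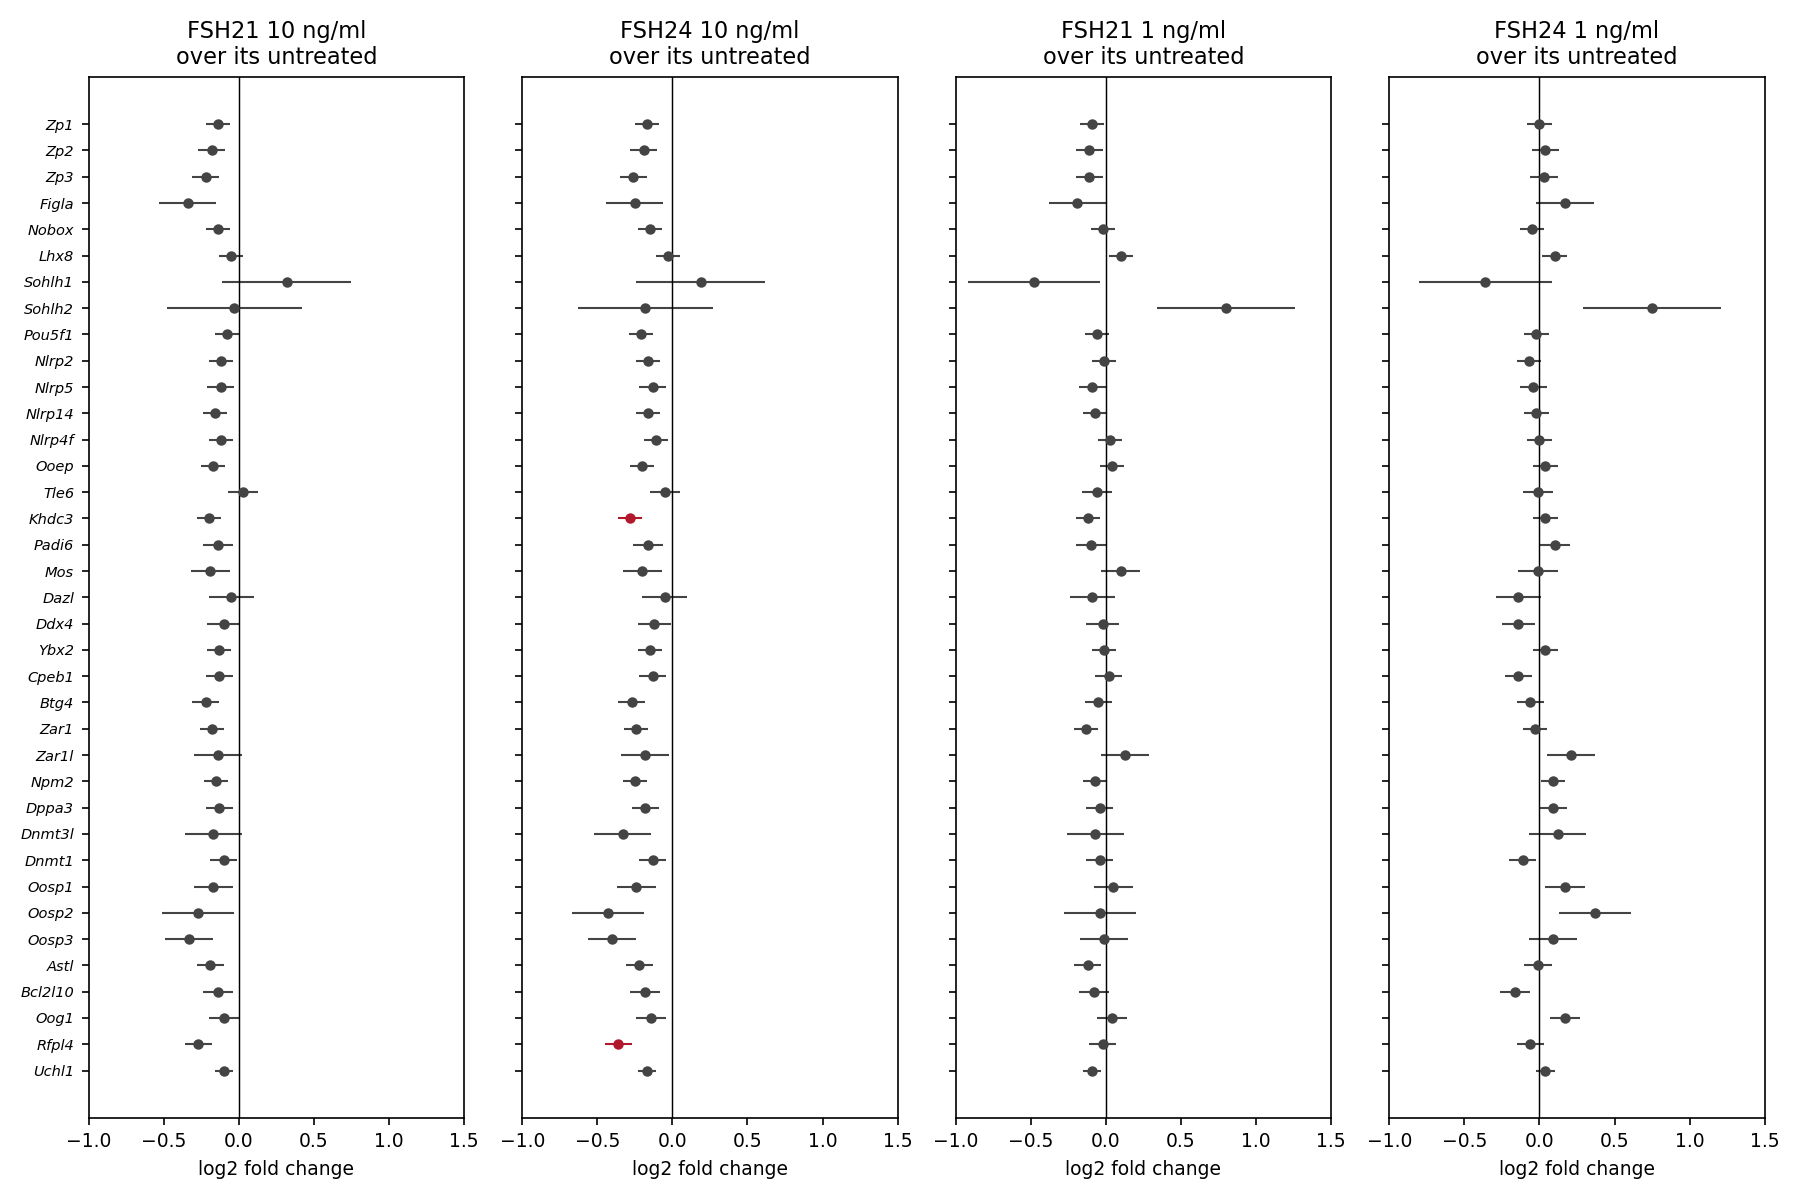
Log2 fold change (edgeR without a block) of each oocyte gene for FSH21 and FSH24 at 10 and 1 ng/ml over the untreated libraries of the same numbers. Bars are ±1 SE and red marks an adjusted p under 0.05. At 10 ng/ml nearly all points lie left of 0, with Khdc3 (-0.28) and Rfpl4 (-0.36) in red for FSH24.

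At 1 ng/ml no oocyte gene was called with either hormone by edgeR or DESeq2, and none reached an unadjusted p under 0.05 in edgeR without a block. Of all genes, 0.128% were called with FSH21 and 0% with FSH24. Members summed to 10028 ± 422 CPM with FSH21 and 10445 ± 711 CPM with FSH24, against 10477 ± 957 CPM in untreated libraries 1, 5 and 6 (SD, n = 3 each). The median log2 fold change was -0.05 with FSH21, with 28 of 37 below 0, and 0.00 with FSH24, with 18 of 37 below 0. All 3 FSH21 libraries were below all 3 untreated ones for 1 member (6.23% of all genes), and all 3 FSH24 libraries were above them for 1 (5.3%). In the library-by-library reading, 3 members were below untreated in all 3 numbers with FSH21 (15.6% of all genes) and 3 with FSH24 (15.1%), and 4 with FSH21 (17% of all genes) and 7 with FSH24 (14.6%) were above in all 3. Number 1 had the lowest summed level in all 3 of its groups, 9584 CPM with FSH21, 9804 CPM with FSH24 and 9426 CPM without FSH. Leaving its 3 libraries out gave medians of -0.05 and -0.03 and no call.

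Several members spread widely between the libraries of this dose. Zp3 had 491, 477 and 575 CPM with FSH21 and 513, 609 and 575 CPM with FSH24 in numbers 1, 5 and 6, against 473, 623 and 568 CPM in the untreated libraries. In number 5 the FSH21 library was low and the other two were high. Padi6 had 1029, 951 and 1111 CPM with FSH21 and 1038, 1152 and 1375 CPM with FSH24, against 974, 1240 and 1110 CPM without FSH; FSH24 library 6 was the highest of the 9. Khdc3 had 147, 151 and 160 CPM with FSH21 and 156, 182 and 175 CPM with FSH24, against 158, 182 and 158 CPM without FSH, and these ranges overlapped. Rfpl4 had 92.3, 112 and 94.2 CPM with FSH21 and 103, 91.5 and 96.4 CPM with FSH24, against 94.3, 116 and 92.7 CPM without FSH, with fold changes of -0.02 and -0.06 (SE 0.09 each). Number 5 was the highest library of Rfpl4 with FSH21 and without FSH, and the lowest with FSH24. Dnmt1 had 1639, 1989 and 1770 CPM with FSH21 and 1668, 1543 and 1936 CPM with FSH24, against 1615, 1982 and 1964 CPM without FSH. In number 5, then, the FSH24 library was the low one for Dnmt1 and Rfpl4 and the FSH21 library for Zp3 and Padi6.

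The FSH libraries of the remaining members given in full overlapped with the untreated libraries at 1 ng/ml, except Figla with FSH24 and Zar1 with FSH21. Figla had 3.95, 4.76 and 3.43 CPM with FSH21 and 5.28, 5.15 and 5.2 CPM with FSH24, against 4.46, 5.01 and 4.42 CPM without FSH. Its FSH24 libraries were all above the untreated ones, with a log2 fold change of 0.17 (SE 0.19), and its FSH21 value was -0.19 (SE 0.19). All FSH21 libraries of Figla were also below all its FSH24 libraries. Nobox had 159, 177 and 177 CPM with FSH21 and 165, 165 and 172 CPM with FSH24, against 153, 184 and 182 CPM without FSH. Sohlh1 had 1.13, 2.08 and 1.81 CPM with FSH21 and 0.673, 2.23 and 2.54 CPM with FSH24, against 1.1, 2.95 and 2.96 CPM without FSH, with fold changes of -0.48 and -0.36 (SE 0.44 each). Sohlh2 had 0.953, 1.4 and 1.62 CPM with FSH21 and 1.19, 1.53 and 1.11 CPM with FSH24, against 0.384, 0.468 and 1.41 CPM without FSH, with fold changes of 0.80 and 0.75 (SE 0.46 each, adjusted p = 0.799 and 0.855). The Sohlh2 values turned on untreated libraries 1 and 5, the lowest of the set. Oosp2 had 5.08, 7.43 and 8.14 CPM with FSH21 and 5.8, 8.59 and 12.9 CPM with FSH24, against 5.42, 8.2 and 7.52 CPM without FSH. Its FSH24 fold change of 0.37 (SE 0.24) rested on library 6. Oosp3 had 20.8, 18.2 and 17.4 CPM with FSH21 and 24.1, 18.8 and 17.7 CPM with FSH24, against 22.9, 16.1 and 17.6 CPM without FSH. Zar1 had 249, 252 and 267 CPM with FSH21 and 274, 291 and 262 CPM with FSH24, against 270, 296 and 277 CPM without FSH. All FSH21 libraries of Zar1 were narrowly below the untreated ones, with a fold change of -0.13 (SE 0.08). Astl had 233, 215 and 261 CPM with FSH21 and 244, 268 and 254 CPM with FSH24, against 227, 277 and 267 CPM without FSH. Uchl1 had 440, 410 and 469 CPM with FSH21 and 477, 483 and 486 CPM with FSH24, against 448, 499 and 461 CPM without FSH. Both hormones overlapped with the untreated libraries, while all FSH21 libraries were below all FSH24 libraries. Figla and Uchl1 were the 2 members with such a gap between the hormones at 1 ng/ml, and the other 35 overlapped. Neither was called in that contrast (edgeR without a block, adjusted p = 0.572 for Figla and 0.538 for Uchl1). The share of all genes with such a gap is not given here, so no glycoform difference is drawn from it.

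**Figure D5:**
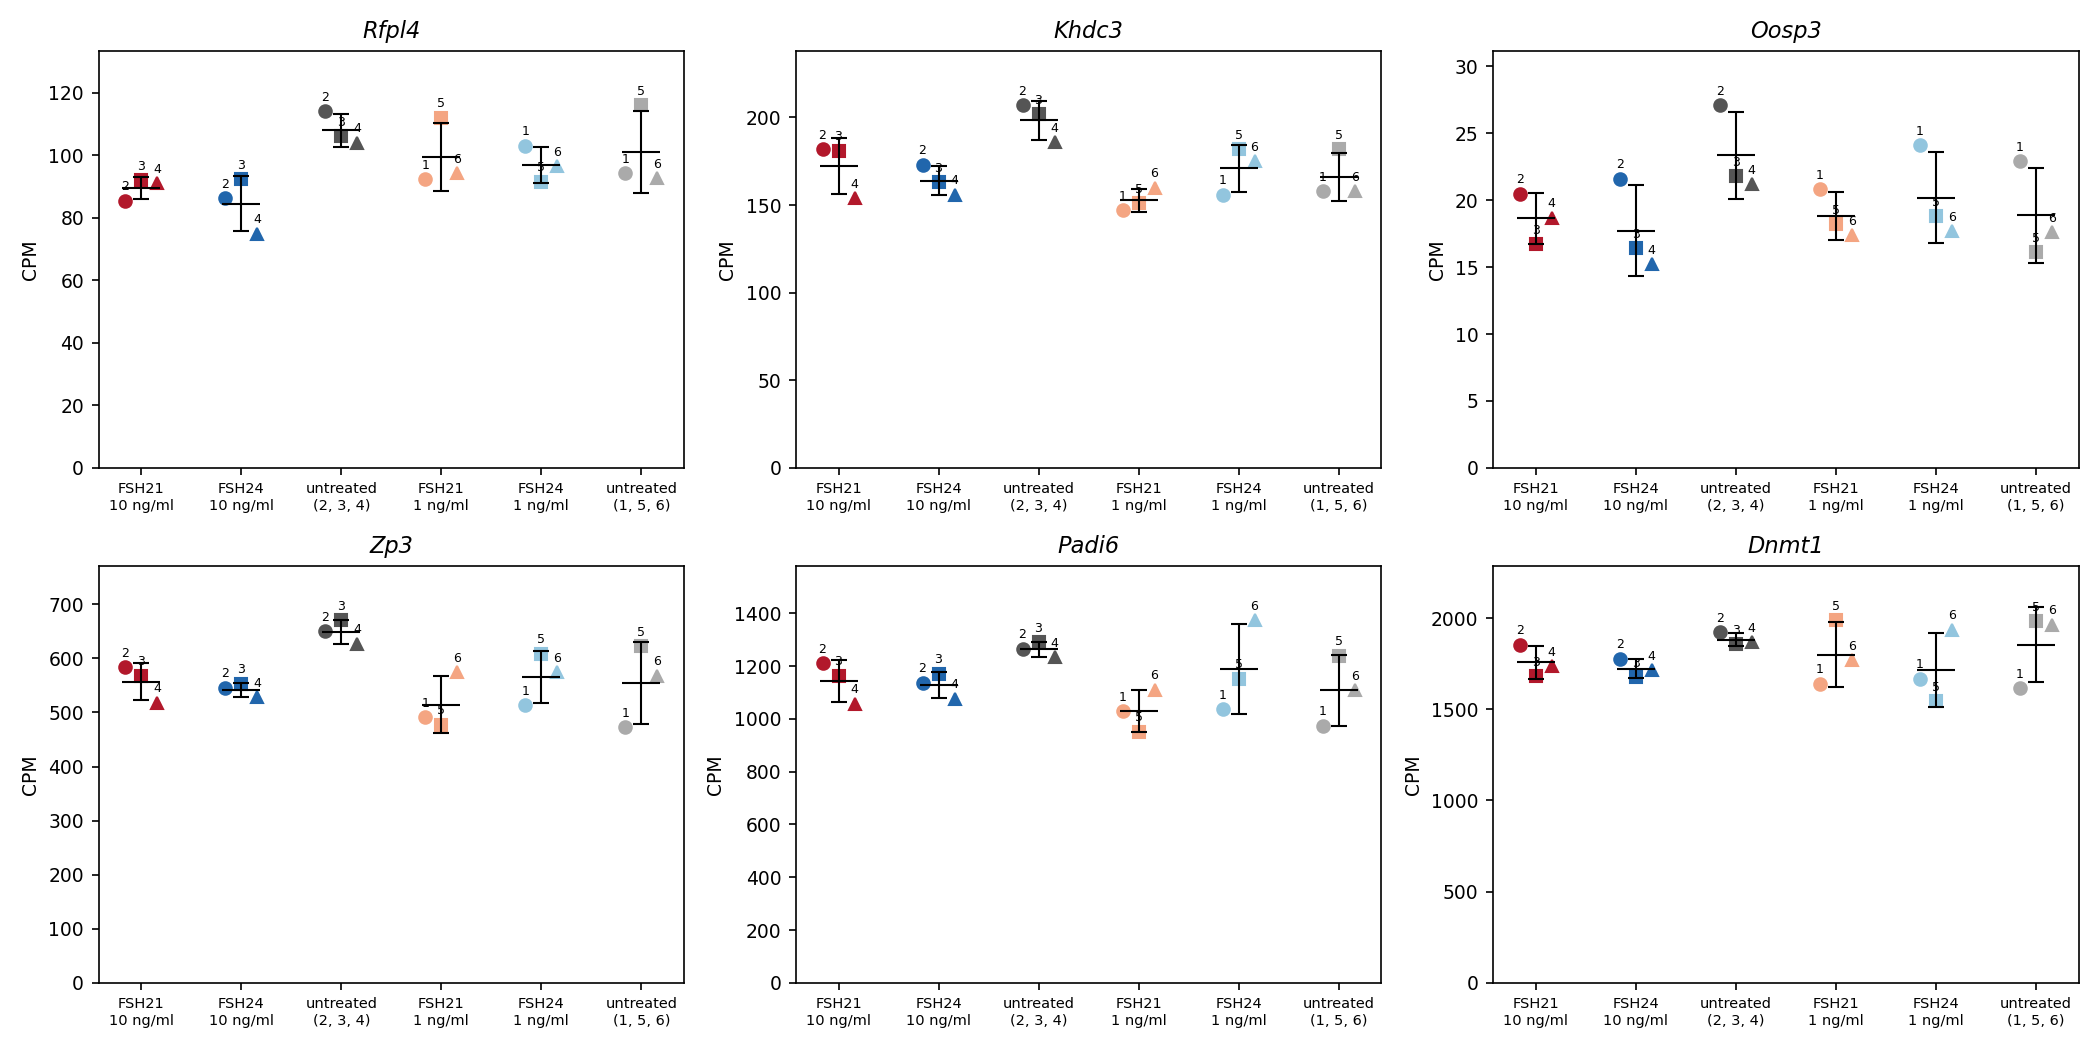
CPM of Rfpl4, Khdc3, Oosp3, Zp3, Padi6 and Dnmt1 in all 18 libraries, labelled by library number, with the mean and SD of each group of 3. For Rfpl4, Khdc3, Zp3, Padi6 and, narrowly, Dnmt1 the 10 ng/ml libraries lie below untreated libraries 2, 3 and 4. No such gap is seen at 1 ng/ml.

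No oocyte gene was called when the glycoforms were set directly against each other. FSH21 minus FSH24 at 10 ng/ml gave a median log2 difference of 0.04 over the members, with 32 of 37 above 0 and values from -0.09 to 0.16. The median was -0.03 without FSH21 library 2, -0.01 without FSH24 library 4 and 0.11 without FSH24 library 2, so its sign turned on single libraries. DESeq2 called no member either, none had an unadjusted p under 0.05 in edgeR, and 0% of all genes were called. For Rfpl4 the difference was 0.08 (95% interval -0.11 to 0.28), for Khdc3 0.07 (-0.09 to 0.24) and for Zp3 0.04 (-0.16 to 0.23), so differences of that size in either direction cannot be told from 0. At 1 ng/ml the median was -0.05, with 24 of 37 below 0 and no call by either tool, where 0.0107% of all genes were called. In edgeR without a block, Padi6 alone had an unadjusted p under 0.05 there, with a log2 difference of -0.21 (SE 0.10, adjusted p = 0.527).

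The difference of each hormone's effect between doses (the 10 ng/ml fold change minus the 1 ng/ml fold change, each against its own untreated libraries) was below 0 for most members. For FSH21 its median was -0.10, with 34 of 37 below 0, no call by edgeR or DESeq2 (0.272% of all genes were called by edgeR without a block) and no unadjusted p under 0.05 in edgeR without a block. For FSH24 its median was -0.21, with 33 of 37 below 0. In edgeR without a block, 11 members had an unadjusted p under 0.05, all below 0 (6.59% of all genes in that direction), and none was called (2.45% of all genes were called in either direction). With the library number as a block, edgeR called 5 members, all below 0 (Khdc3, Npm2, Oosp1, Oosp2 and Oosp3), against 2.69% of all genes. DESeq2 called Npm2, which was below 0, as were 2.03% of all genes by the same rule. In edgeR without a block the lowest adjusted p was that of Npm2, with a log2 difference of -0.34 (SE 0.11, adjusted p = 0.138), followed by Khdc3 with -0.32 (SE 0.11, adjusted p = 0.17). Rfpl4 had -0.25 (SE 0.13) for FSH21 and -0.30 (SE 0.13) for FSH24. Over the 39 other oocyte genes tested, the medians were -0.12 for FSH21 and -0.08 for FSH24. Because the doses were given to different library numbers, these values include the higher level of the oocyte genes in untreated libraries 2, 3 and 4.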

How the data were processed

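RNA of mouse ovarian follicles was sequenced in 72 deposited samples, which are 18 libraries on 4 lanes each. The deposited values are expected counts per gene made by the authors with RSEM, per the file headers, with lanes merged; 33.9% of non-zero values were not whole, and all were rounded first. Per the submitters' processing notes, the tools were STAR 2.7, bcl2fastq and FastQC, with build mm10. The RSEM version, annotation and use of strand are not given in the sources used here, so reads of antisense or near-identical genes (the Nlrp and Oosp families, Oog1) cannot be told apart from their partners. One untreated column, numbered 4, spelled its treatment code differently from its title and was matched by number. Library totals ran from 17.5 to 22.5 M counts, with a median of 21.4 M (M, mega).

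Positions and exon lengths came from GENCODE M21 on GRCm38, promoter windows from RefSeq on GRCm38.p6. Genes passing filterByExpr (minimum count 10) numbered 18727. The test was edgeR 4.0.16's quasi-likelihood test (R 4.3.3), robust, two-sided, with TMM scaling recomputed over the genes tested, all 18 libraries in 6 groups and no block, adjusted by Benjamini-Hochberg over all genes and called under 0.05; the common biological coefficient of variation was 0.135. SEs and intervals derive from that fit. CPM are counts over TMM-scaled totals. DESeq2 1.42.0 was the other tool. The scripts were tested on simulated data. Values of every library are given for members called in any comparison, with 1 of the 3 largest fold changes in a treatment comparison, or highest per kilobase in their role. The members, lists and tests were chosen with earlier results of these data known.

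Pairing was checked by correlating deviations from group means across genes. For FSH21 at 10 ng/ml and its untreated libraries, same-numbered correlations were 0.193, 0.206 and 0.126, all over the 0.1 taken as pairing. That cut was chosen and not tested. Every other comparison had a number under 0.1, although all same-numbered correlations were above the highest with another number (0.049).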

Additional observations from a re-analysis of the deposited data

How the results depend on the processing

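With the replicate block, 8 members were called for FSH21 at 10 ng/ml and 12 for FSH24 at 10 ng/ml (5.58% of all genes fell). The dose difference of FSH24 had 5 (Khdc3, Npm2, Oosp1, Oosp2 and Oosp3, against 2.69% of all genes). No member was called in the other comparisons. Only for FSH21 at 10 ng/ml were all same-numbered correlations over 0.1, although every library correlated best with its own number. For FSH21 at 10 ng/ml, with no member called in the test reported, 1 was called without a count filter, 1 with only the 9 libraries of that dose set, 1 by DESeq2, and 0 to 1 when 1 library was left out. For FSH24 at 10 ng/ml, with 2 called, scaling by other oocyte genes gave 0, no count filter 4, all 6 untreated libraries 1, library totals over all genes 4 (chosen after seeing the data), DESeq2 7, DESeq2's size factors 3, the 9 libraries of that dose set 3 (Zp3, Rfpl4 and Npm2, with Khdc3 at an adjusted p of 0.0506), and leaving out 1 library 0 to 4 (0 without untreated library 2 or FSH24 library 4, 1 without FSH24 library 3, 4 without FSH24 library 2). DESeq2 called 1 member for the dose difference of FSH24. Every other count of called members stayed at 0. Among all genes, scaling by other oocyte genes left 1.09% lower for FSH21 and 0.828% for FSH24 at 10 ng/ml, against 4.21% and 3.3% in the test reported, and moved the share of higher genes among the calls to 85.2% and 88.1%, against 58.6% and 60.8%. For FSH24 at 10 ng/ml the other settings called between 1.56% (no count filter) and 5.58% (replicate block) of all genes lower, and leaving out 1 library gave 2.26% to 3.12%. For FSH21 they called between 2% (no count filter) and 6.84% (all 6 untreated libraries), and leaving out 1 library gave 2.9% to 4.15%. Without 1 library, the members' median log2 fold change ran from -0.20 to -0.11 for FSH21 and from -0.24 to -0.14 for FSH24 at 10 ng/ml, from -0.10 to -0.01 and from -0.05 to 0.05 at 1 ng/ml, from -0.16 to -0.04 and from -0.28 to -0.17 for the dose differences of FSH21 and FSH24, from -0.03 to 0.11 for FSH21 minus FSH24 at 10 ng/ml, from -0.08 to -0.01 at 1 ng/ml, and from 0.15 to 0.24 between the untreated sets. The causes were not tested. Depth limits Sohlh1 and Sohlh2, which averaged 2.24 and 1.04 CPM in untreated libraries.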
